A study of Homo sapiens with 4 samples.

Results

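Integrin alpha subunits are the chains of the integrin receptors that mainly set which ligand is bound. The 10 alpha subunit genes described here, ITGA1, ITGA2, ITGA3, ITGA5, ITGA6, ITGA7, ITGA9, ITGA10, ITGAE and ITGAV, were found by their names in the table of gene values and make up 10 of its 47251 genes. Their transcripts number 82 of the 180500 in the table of transcript values. RNA was sequenced from 4 libraries of AGS, a cell line derived from a human gastric adenocarcinoma, grown in DMEM with fetal bovine serum. The 2 sh-MFAP2 libraries came from cells that carried short hairpin RNA against MFAP2, which encodes a protein of extracellular microfibrils, and the 2 control libraries came from cells with a scrambled hairpin. The hairpins were delivered by lentivirus and infected cells were selected with puromycin, so that stable lines were sequenced. The titles of both sh-MFAP2 libraries name 1 hairpin, whereas another label numbers them 1 and 2, so it was not settled whether the sh-MFAP2 libraries share a hairpin and their spread may include a difference between hairpins. No source used here states whether the 2 libraries of a group came from separate cultures, and bulk values cannot tell fewer cells with a transcript from less of it per cell. The p-values therefore measure the spread between these libraries, which may be technical.

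An integrin is a dimer of 1 alpha and 1 beta subunit that spans the plasma membrane, binds the extracellular matrix or another cell outside and links to actin inside through talin and kindlin. ITGA3, ITGA6 and ITGA7 bind laminins, the main proteins of basement membranes. ITGA5 and ITGAV bind ligands with the Arg-Gly-Asp (RGD) motif such as fibronectin and vitronectin, and ITGA1, ITGA2 and ITGA10 bind collagens. ITGA9 binds tenascin C and osteopontin, and ITGAE, the subunit known as CD103 on T cells of the gut lining, pairs with ITGB7 and binds E-cadherin. In epithelia the dimer of ITGA6 and ITGB4 anchors cells to the basement membrane in hemidesmosomes, and ITGA5 with ITGB1 is the classical fibronectin receptor.

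The values are taken as FPKM, fragments scaled by feature length and library depth, since the tables do not name their unit. The steps between low values implied a depth of 54800000 to 75100000 reads or fragments per library. Each library had 19658 to 20020 genes above 0, and the pairwise Pearson correlation across genes ran from 0.926 to 0.947. It was 0.947 between the controls, 0.935 between the sh-MFAP2 libraries and 0.926 to 0.935 between libraries of different groups. The sh-MFAP2 libraries were thus no more alike than the closest pair across groups. MFAP2 itself had 0.0116 and 0.0138 FPKM in the controls and 0 in the sh-MFAP2 libraries, a few inferred reads at most, so it could not serve as a check of the labels. Of 6 epithelial markers, 5 had a mean of at least 1 FPKM, and their summed level was 1733 to 1983 FPKM. CDH1, the gene of E-cadherin, was at 0.584 to 1.25 FPKM, and CLDN4 reached that mean only through sh-MFAP2 replicate 1, at 47.1 FPKM against 0.0151 to 0.551 FPKM in the other 3 libraries. The summed levels of 4 endothelial markers were 0.0145 to 0.0380 FPKM, those of 6 fibroblast markers 2.12 to 4.96 FPKM, nearly all from COL1A1, and those of 5 leukocyte markers 85.6 to 579 FPKM, nearly all from LYZ, a gene that gastric epithelium also expresses.

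ITGA6 and ITGA3 transcripts end in one of 2 alternative cytoplasmic tails, which depend on whether a cassette exon is included. The tails are shown here because the forms differ in the libraries. Each line runs 5′ to 3′ across the junction between 2 exons, with the last 15 bases of the exon before in lower case and the first 15 bases of the exon after in capitals (transcripts of GENCODE 29). The sequences come from ENST00000264107 and ENST00000409080 for ITGA6 and from ENST00000320031 and ENST00000007722 for ITGA3.
ITGA6 with cassette exon: tttatactatggaagTGTGGTTTCTTCAAG
ITGA6 without cassette exon: tttatactatggaagTGTGGATTCTTTAAA
ITGA3 with cassette exon: ctcctgctgtggaagTGCGGCTTCTTCAAG
ITGA3 without cassette exon: ctcctgctgtggaagTGTGACTTCTTTAAG
In each gene 12 of the 15 capital bases were the same with and without the cassette exon, so the tails begin alike before they part. In ITGA6 the cassette is exon 25 of 26 (chr2:172501772-172501901, plus strand, 130 bases, 105 of them coding), and in ITGA3 it is exon 25 of 26 (chr17:50088225-50088366, plus strand, 142 bases, 108 of them coding). The coding sequence ends inside the cassette where it is included. These forms are known as 6A and 3A with the exon and 6B and 3B without it.

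ITGAE also gave transcripts of different kinds, and the junctions that part its full-length mRNA (ENST00000263087) from a short noncoding transcript (ENST00000572179) are shown in the same way.
ITGAE full length: tacagttcggttcagCATGTGGAAGAATGG
ITGAE short: tacagttcggttcagTTACTAAAAGATGTA
After the shared 15 bases of exon 27 of the full-length mRNA, only 5 of the 15 capital bases were the same, since the short transcript skips the exon that follows.

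By mean gene value over the 4 libraries the order was ITGA6, ITGAV, ITGA2, ITGA3, ITGA5, ITGAE, ITGA7, ITGA1, ITGA10 and ITGA9, from 32.9 FPKM for ITGA6 to 0.0150 FPKM for ITGA9. The 4 leading subunits therefore cover laminin, RGD and collagen binding. Among the controls ITGA6, at 38.8 and 45.05 FPKM, lay above ITGAV, at 33.6 and 33.1 FPKM. The control ranges of ITGA2 and ITGA3 overlapped, as did those of ITGA1 and ITGA10. In sh-MFAP2 the ranges of ITGA6, ITGAV, ITGA2 and ITGA3 ran into each other, so their order was not set by these libraries.

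**Figure D1:**
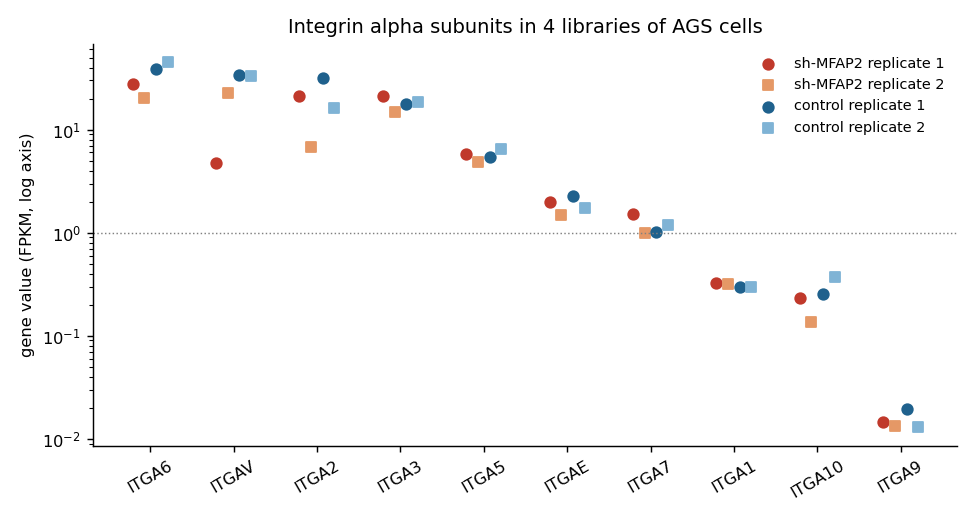
Gene values of the 10 integrin alpha subunits in FPKM on a log axis, with 1 point per library and genes ordered by their mean. The dotted line is the minimum mean of 1 FPKM for testing, and ITGAV in sh-MFAP2 replicate 1 lies at 4.71 FPKM, well below its other 3 points.

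The order depends on how a gene's length is counted. The gene value of each of the 10 genes equals its transcripts' summed reads divided by the union of all listed exons, for example 9644 bases for ITGA3, whose longest transcript has 5479 bases. Exons of noncoding and retained-intron transcripts thereby enter the divisor. The mean gene value was below the mean summed FPKM of the coding transcripts in 8 of the 10 genes, equal to it in ITGA2, which has 1 transcript, and above it in ITGAE. ITGA3 had a mean gene value of 18.1 FPKM and a mean coding-transcript sum of 35.3 FPKM, which moved it from rank 4 to rank 2. ITGAE went the other way, from a gene value of 1.88 FPKM to a coding-transcript sum of 0.0250 FPKM, and from rank 6 to rank 9. Levels of genes are compared below as gene FPKM unless transcripts are named.

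Genes averaging at least 1 FPKM were compared between the groups with limma on log2(FPKM + 1), a scale that understates changes of low genes, and p-values were adjusted by the Benjamini-Hochberg method over the 9873 genes tested. Of the 10 alpha subunits 7 were tested, and ITGA1, ITGA9 and ITGA10 lay under the filter. None of the 7 passed the study's thresholds of p under 0.01 and adjusted p under 0.05, which 0.273% of all genes tested (27) passed. Of the 7, 1 (ITGA6) had an unadjusted p under 0.05 in limma, and it was lower in sh-MFAP2, as were 8.41% of all genes at that threshold. The groups did not overlap for 2 of the 7, ITGA6 and ITGAV, each lower in sh-MFAP2, against 31.4% of all genes tested that were lower without overlap. The log2 fold change was below 0 for 6 of the 7 subunits, against 58% of all genes tested, and its median was -0.14, against -0.05 over all genes tested. An exact permutation test of 2 against 2 libraries cannot go below a two-sided p of 0.33.

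**Figure D2:**
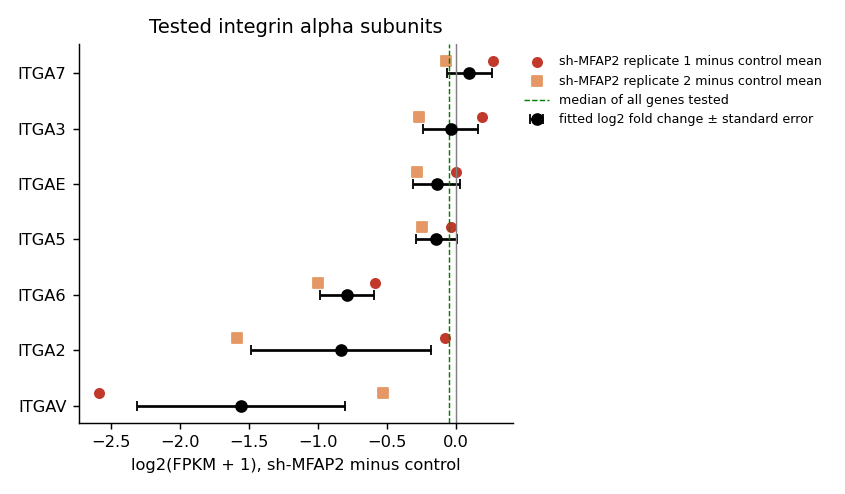
Difference in log2(FPKM + 1) between sh-MFAP2 and control for the 7 tested alpha subunits, with black points for the fitted log2 fold change and bars for its standard error, and coloured points for each sh-MFAP2 library minus the control mean. The coloured points of ITGAV lie at -2.59 and -0.53, and those of ITGA3, ITGA7 and ITGAE fall on both sides of 0.

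Of the laminin receptors, ITGA6 was the alpha subunit with the smallest p in the limma fit above. ITGA6 (ENSG00000091409, chr2:172427354-172506282, plus strand) had 27.5 and 20.4 FPKM with sh-MFAP2 (replicates 1 and 2) against 38.8 and 45.05 FPKM with the control hairpin. The sh-MFAP2 values were both below the control values, and the control mean was 1.75-fold the sh-MFAP2 mean. The log2 fold change was -0.79 with a standard error of 0.20 (limma adjusted p = 0.352). Leaving out any 1 library kept the direction, from -0.998 to -0.59. Behind these values lay 7315 to 22089 inferred reads, so counting error was small against the spread between libraries.

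Of the 11 alpha subunit transcripts with a mean of at least 1 FPKM, limma called none, as for 0% of the 22312 transcripts tested, and 2, both of ITGA6, had an unadjusted p under 0.05, against 7.64% of all. Of these, ENST00000442250 passed the filter only through its control values, so its p is not read as support. The form without the cassette exon, ENST00000409080, had 17.3 and 15.4 FPKM with sh-MFAP2 against 27.2 and 37.1 FPKM in control. The groups did not overlap, with a log2 fold change of -0.92 and a standard error of 0.23 (limma adjusted p = 0.553 over 22312 transcripts). The form with the exon, ENST00000264107, had 15.5, 8.90, 17.5 and 12.7 FPKM in the same order of libraries, and its groups overlapped (log2 fold change -0.31, standard error 0.35, limma adjusted p = 0.789). Another coding transcript, ENST00000442250, has an extra exon 6 of 117 bases (chr2:172472774-172472890) and no cassette. It had 2.55 and 4.77 FPKM in the controls and was listed at 0 in sh-MFAP2 replicates 1 and 2.

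Over all coding ITGA6 transcripts that reach the tail, the form with the cassette exon took 46.7% and 35.8% in sh-MFAP2 and 36.6% and 24.6% in control. These shares overlap between sh-MFAP2 replicate 2 and control replicate 1. The 4 transcripts without the exon summed to 17.7, 16.0, 30.3 and 43.8 FPKM, and the 2 with it to 15.5, 8.93, 17.5 and 14.3 FPKM. The difference between the groups in ITGA6 thus lay mainly in the form without the exon, although the difference between the forms was not tested.

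ITGA3, the partner of ITGB1 in binding laminin-332, showed no separation at the gene level. ITGA3 (ENSG00000005884, chr17:50055968-50090481, plus strand) had 21.0 and 14.9 FPKM with sh-MFAP2 against 17.8 and 18.7 FPKM in control. The control values lay between the sh-MFAP2 values, and the log2 fold change was -0.04 with a standard error of 0.20 (limma adjusted p = 0.945). Its sign changed to 0.19 without sh-MFAP2 replicate 2.

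Nearly all coding ITGA3 carried the cassette exon in 3 of the libraries, and sh-MFAP2 replicate 1 stood apart. The share with the exon was 80.4% and 100% in sh-MFAP2 and 98.6% and 99.6% in control. ENST00000320031, with the exon, had 32.2, 28.97, 33.8 and 36.2 FPKM. Its groups did not overlap, as for 24.9% of all transcripts tested that were lower without overlap, and its log2 fold change was -0.19 with a standard error of 0.17 (limma adjusted p = 0.746). ENST00000007722, without the exon, was at 7.86 FPKM in sh-MFAP2 replicate 1, listed at 0 in sh-MFAP2 replicate 2 and at 0.493 and 0.155 FPKM in control. A retained-intron transcript of ITGA3, ENST00000506437, was also highest in sh-MFAP2 replicate 1, at 4.45 FPKM against 0.349 to 0.635 FPKM in the other 3 libraries.

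**Figure D3:**
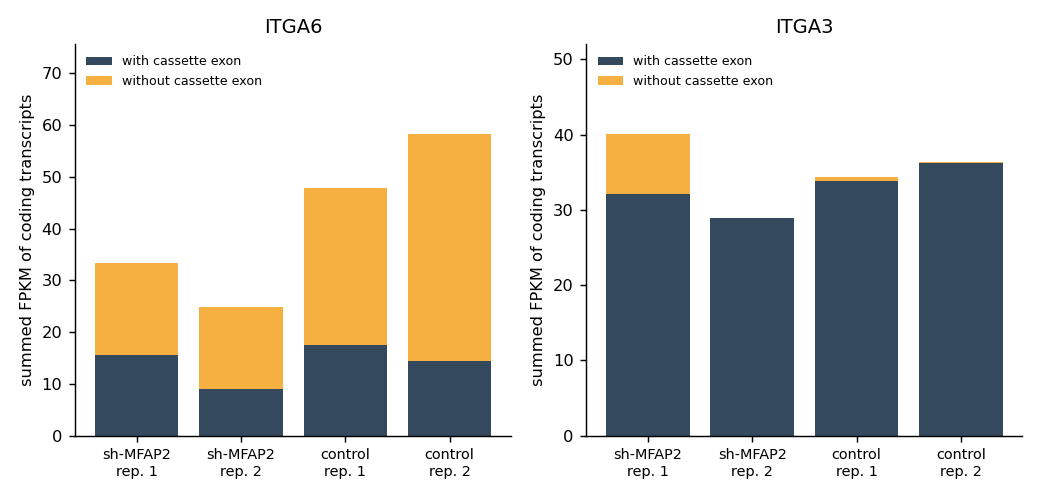
Summed FPKM of coding ITGA6 transcripts (left) and ITGA3 transcripts (right) with and without the cassette exon, stacked for each of the 4 libraries. The part of ITGA6 without the exon is 17.7 and 16.0 FPKM with sh-MFAP2 against 30.3 and 43.8 FPKM in control, and ITGA3 without the exon is visible mainly in sh-MFAP2 replicate 1, at 7.86 FPKM.

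ITGA7, the laminin receptor typical of muscle, was near the filter. ITGA7 (ENSG00000135424, chr12:55684568-55716043, minus strand) had 1.53 and 0.994 FPKM with sh-MFAP2 against 1.02 and 1.18 FPKM in control, with overlapping groups. The log2 fold change was 0.10 with a standard error of 0.16 (limma adjusted p = 0.809), and without sh-MFAP2 replicate 1 it was -0.07. Its ends overlap neighbours on the other strand, METTL7B by 44 bases and BLOC1S1 by 7 bases. METTL7B was at 7.92 and 10.4 FPKM with sh-MFAP2 against 2.76 and 3.04 FPKM in control (limma adjusted p = 0.166). Whether reads were counted by strand is not given in the sources used here, so reads in the overlaps could belong to either gene.

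Of the RGD receptors, ITGAV had the largest log2 fold change among the tested alpha subunits and also the largest spread. ITGAV (ENSG00000138448, chr2:186590065-186680901, plus strand) pairs with ITGB1, ITGB3, ITGB5, ITGB6 or ITGB8. It had 4.71 and 22.8 FPKM with sh-MFAP2 against 33.6 and 33.1 FPKM in control. Neither sh-MFAP2 value reached the controls, but the sh-MFAP2 replicates differed 4.85-fold and the controls 1.01-fold. Only 1.43% of the genes tested had so large a gap between the sh-MFAP2 libraries. The log2 fold change was -1.56 with a standard error of 0.76 (limma adjusted p = 0.473), and it was -0.53 without sh-MFAP2 replicate 1 and -2.59 without sh-MFAP2 replicate 2. The size of the ITGAV difference thus rested on sh-MFAP2 replicate 1, with its direction shared by both libraries. The epithelial marker CLDN4 was also out of line in that library, at 47.1 FPKM against 0.0151 to 0.551 FPKM in the other 3. Its part in the result was not tested. Other libraries had such values too. RAB21 was at 4.14 FPKM in sh-MFAP2 replicate 2 and 0.705 to 1.00 FPKM elsewhere. TGFB1 was at 15.2 FPKM in control replicate 2 and 30.9 to 32.7 FPKM elsewhere. The coding transcript ENST00000261023 carried the pattern, at 5.44, 26.7, 39.2 and 38.7 FPKM.

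ITGA5, the fibronectin receptor subunit that the study measured further by qPCR and western blotting, had values within the spread between replicates. The paper reports lower ITGA5 after MFAP2 knockdown by sequencing and by both assays. The qPCR and western blot results are not among the values described here. ITGA5 (ENSG00000161638, chr12:54395261-54419460, minus strand) had 5.81 and 4.86 FPKM with sh-MFAP2 against 5.47 and 6.5 FPKM in control. The groups overlapped, since the first sh-MFAP2 library lay above the first control library. The fitted log2 fold change was -0.14 with a standard error of 0.15 (limma adjusted p = 0.689). It stayed below 0, from -0.25 to -0.03, whichever library was left out, and was nearest to 0 without sh-MFAP2 replicate 2.

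The coding transcript ENST00000293379 held 96.8% to 98.0% of the summed FPKM of ITGA5 transcripts, at 9.83 and 8.24 FPKM with sh-MFAP2 against 9.25 and 10.9 FPKM in control. The study's qPCR primers for ITGA5 are shown 5′ to 3′, all in lower case, because they mark the stretch of ITGA5 that assay amplifies.
ITGA5 forward: gctctaagccttcccaggttct
ITGA5 reverse: gaggcactagcggacacgat
Each primer (the reverse one as its reverse complement) matched ENST00000293379 once, the forward primer at bases 1569 to 1590 in exon 13 and the reverse primer at bases 1736 to 1755 in exon 15. This is the transcript with nearly all ITGA5 signal in these libraries, and the primers were not searched for in the other ITGA5 transcripts.

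Of the collagen receptors, ITGA2 was the only one above 1 FPKM, and its replicates differed widely. ITGA2 (ENSG00000164171, chr5:52989326-53094779, plus strand), which with ITGB1 forms the main collagen receptor of epithelia and platelets, had 21.4 and 6.84 FPKM with sh-MFAP2 against 31.4 and 16.2 FPKM in control. The groups overlapped, with 3.12-fold between the sh-MFAP2 libraries and 1.94-fold between the controls. Gaps as large were found in 2.78% and 5.32% of the genes tested. The log2 fold change was -0.83 with a standard error of 0.65 (limma adjusted p = 0.604), and leaving out 1 library moved it between -1.59 and -0.08, nearest to 0 without sh-MFAP2 replicate 2. In both groups replicate 2 had the lower ITGA2 value, and LYZ ran the other way, at 85.5 and 579 FPKM with sh-MFAP2 against 89.3 and 369 FPKM in control, whose part in the result was not tested. With the replicate number fitted as a block, the log2 fold change of ITGA2 stayed at -0.83 and its standard error was 0.22. That fit gave an unadjusted p of 0.031 in limma (adjusted p = 0.614), so the spread of ITGA2 depends on the pairing. Only 1 transcript is listed for ITGA2, so no change of form could be seen.

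ITGA1 and ITGA10, collagen receptors best known from mesenchymal tissues and cartilage, were low in all libraries. ITGA1 (ENSG00000213949, chr5:52787896-52959210, plus strand) had 0.324 and 0.315 FPKM with sh-MFAP2 against 0.298 and 0.299 FPKM in control. The span of PELO, introns included, lies within that of ITGA1 on the same strand over 16107 bases. PELO was at 7.73 to 8.58 FPKM. How many of these bases are exon in both genes was not measured, so whether reads could be shared is not known. ITGA10 (ENSG00000143127, chr1:145891208-145910189, minus strand) had 0.233 and 0.137 FPKM with sh-MFAP2 against 0.256 and 0.371 FPKM in control, from 47.5 to 176 inferred reads. The groups did not overlap in either gene, higher in sh-MFAP2 for ITGA1 and lower for ITGA10, against 16% and 21.2% of the genes above 0 in at least 1 library. The coding ITGA1 transcript ENST00000282588 went the other way, at 0.473 and 0.422 FPKM with sh-MFAP2 against 0.511 and 0.490 FPKM in control. A retained-intron transcript of ITGA1, ENST00000504669, was at 0.128 and 0.163 FPKM with sh-MFAP2 against 0 and 0.0043 FPKM in control. By these estimates the coding transcript was thus not higher along with the gene value of ITGA1. Neither transcript reached the filter, and the split between them was not tested. With no filter on low values, limma gave adjusted p = 0.855 for ITGA1 and adjusted p = 0.660 for ITGA10.

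ITGA9 (ENSG00000144668, chr3:37452115-37823514, plus strand) was close to undetected. It had 0.0145 and 0.0133 FPKM with sh-MFAP2 against 0.0193 and 0.0129 FPKM in control, which stands for 6.02 to 9.47 inferred reads, and no difference was detectable at this depth (limma adjusted p = 0.923 with no filter).

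ITGAE gene values came almost wholly from short noncoding transcripts. ITGAE (ENSG00000083457, chr17:3714628-3801243, minus strand) had 2.01 and 1.47 FPKM with sh-MFAP2 against 2.29 and 1.74 FPKM in control, with overlapping groups and a log2 fold change of -0.14 with a standard error of 0.17 (limma adjusted p = 0.732). The full-length mRNA of 31 exons was at 0.0259, 0, 0.0483 and 0.0257 FPKM, at most 11.0 inferred reads in any library. The short transcript ENST00000572179, of 672 bases in 4 exons, was at 17.3, 12.6, 20.1 and 15.5 FPKM (limma adjusted p = 0.773). Together with ENST00000570360, another short noncoding transcript, it held 97.1% to 99.4% of the summed FPKM of ITGAE transcripts. The gene value of ITGAE is thus no measure of mRNA for the CD103 protein in these cells. ITGB7, the beta subunit that pairs with it, was at 0.0268 to 0.0793 FPKM.

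The short transcript overlaps exons 27, 29, 30 and 31 of the full-length mRNA. Its first base lies 65 bases from HASPIN, a kinase gene that starts at 3723903 on the other strand within ITGAE. HASPIN was listed at 0 in 3 of the libraries and at 1.12 FPKM in sh-MFAP2 replicate 2, so its level did not follow that of the short transcript.

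**Figure D4:**
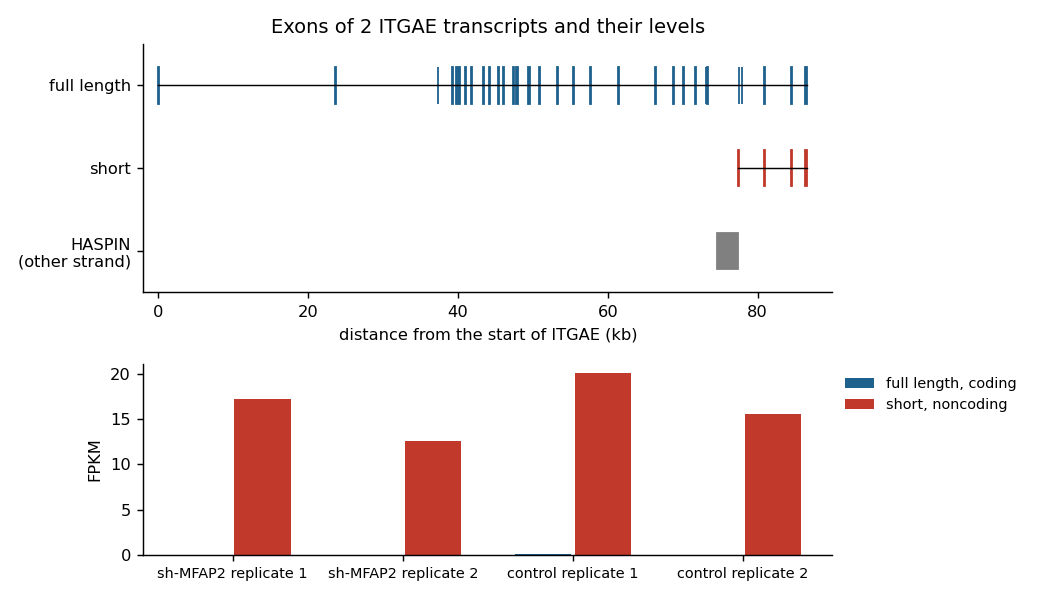
Top, exons of the full-length and short ITGAE transcripts and the HASPIN gene by distance in kb from the start of ITGAE; bottom, FPKM of the full-length and short transcripts in each library. The short transcript sits at the 3′ end of ITGAE and has 12.6 to 20.1 FPKM, while the full-length mRNA has at most 0.0483 FPKM.

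The summed gene values of the 10 alpha subunits were 84.4 and 72.8 FPKM with sh-MFAP2 against 131 and 123 FPKM in control. ITGA6 made up 28.1% to 36.6% of this sum in the 4 libraries. ITGAV made up 5.58% in sh-MFAP2 replicate 1 and 25.7% to 31.4% in the others. The share of ITGA3 was 24.8% and 20.5% in sh-MFAP2 and 13.6% and 15.1% in control, and that of ITGA5 was 6.88% and 6.67% in sh-MFAP2 and 4.18% and 5.28% in control. Both shares were higher in both sh-MFAP2 libraries, where the sum that divides them was lower.

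**Figure D5:**
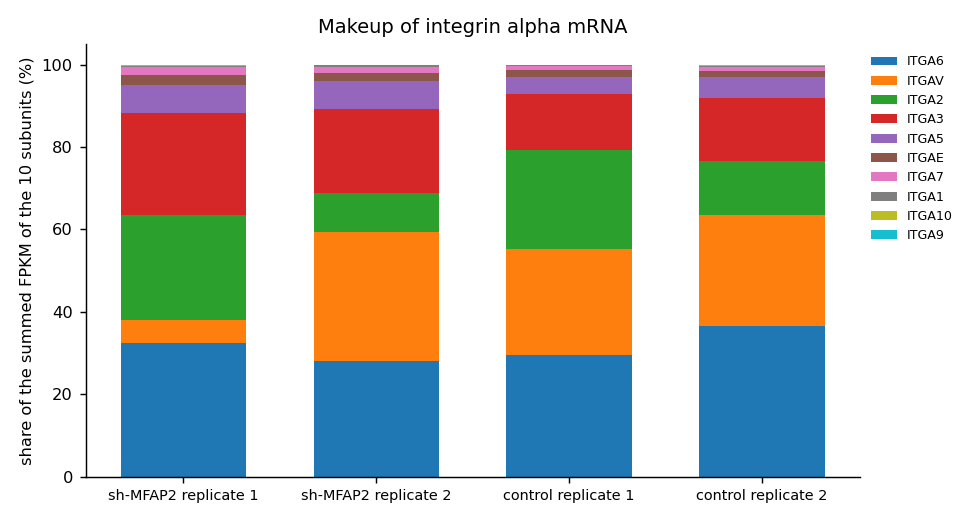
Share in percent of each alpha subunit in the summed FPKM of the 10 genes, stacked for each library. ITGAV takes 5.58% of the bar in sh-MFAP2 replicate 1 and at least 25.7% in the other 3 libraries.

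The beta subunits complete each dimer. Of 8 beta subunits 4 were tested, none was called by limma, against 0.273% of all genes tested, and ITGB1 and ITGB6 were lower at an unadjusted p under 0.05, against 8.41% of all genes tested. ITGB1, the partner of 9 of the 10 alpha subunits, was at 56.6 and 51.2 FPKM with sh-MFAP2 against 78.1 and 86.4 FPKM in control (log2 fold change -0.60, standard error 0.12, limma adjusted p = 0.330). ITGB6, which pairs only with ITGAV, was at 3.83, 3.76, 6.11 and 5.27 FPKM (limma adjusted p = 0.352). ITGB4, which pairs only with ITGA6, was at 25.2, 19.4, 18.2 and 19.7 FPKM, and ITGB5, another partner of ITGAV, was at 38.1, 27.3, 32.1 and 32.5 FPKM. ITGB3 was listed at 0 in all 4 libraries.

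Set against their partners, the alpha subunits kept different ratios. The summed gene FPKM of the 9 subunits that pair with ITGB1 was 1.46 and 1.40 times ITGB1 in sh-MFAP2 and 1.65 and 1.41 times in control, so the sum and ITGB1 were lower together. ITGA5 was 0.103 and 0.0950 of ITGB1 in sh-MFAP2 and 0.0700 and 0.0753 in control. ITGA6 was 1.09 and 1.05 times ITGB4 in sh-MFAP2 and 2.12 and 2.29 times in control. ITGAV was 0.123 and 0.836 times ITGB5 in sh-MFAP2 and 1.05 and 1.02 times in control. ITGA3 was 0.370 and 0.292 of ITGB1 in sh-MFAP2 and 0.228 and 0.216 in control, and ITGAV was 0.0832 and 0.447 of ITGB1 in sh-MFAP2 and 0.430 and 0.384 in control. The ratios of ITGA5 and ITGA3 to ITGB1, of ITGA6 to ITGB4 and of ITGAV to ITGB5 did not overlap between the groups, whereas that of ITGAV to ITGB1 did, as did those of ITGA2 and the sum to ITGB1. ITGA6 was 0.486 and 0.399 of ITGB1 in sh-MFAP2 and 0.496 and 0.522 in control, also without overlap. The ratios were not tested, and no share over other ratios was computed. Groups without overlap were common among gene values: of the 9873 genes tested, 3104 were lower in sh-MFAP2 and 1728 higher.

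The other 8 alpha subunits, mostly those of leukocytes and platelets, were all under the filter, with ITGA4, ITGA8 and ITGAD listed at 0 in all libraries. Among the ligands, 4 of 11 RGD ligands, 7 of 11 laminin chains and 3 of 12 collagen chains were tested. None was called by limma, against 0.273% of all genes tested. COL1A1, a chain of type I collagen, had the smallest p of these, at 2.27 and 2.07 FPKM with sh-MFAP2 against 4.36 and 4.92 FPKM in control (log2 fold change -0.83, limma adjusted p = 0.221). VTN, the gene of vitronectin, was at 14.6, 11.3, 17.8 and 17.3 FPKM (limma adjusted p = 0.415). Laminin chains had a median log2 fold change of 0.05, against -0.05 over all genes tested. LAMC1 was at -0.37 and LAMB3 at 0.37 (limma adjusted p = 0.547 and adjusted p = 0.555). TGFB1, at 15.2 FPKM in control replicate 2 and 30.9 to 32.7 FPKM elsewhere, and COL6A1, at 13.5 to 18.1 FPKM, overlapped between the groups.

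Of the genes that act on integrins inside the cell or in the membrane, 12 of 15 activators and inhibitors, 10 of 10 tetraspanins and membrane partners and 12 of 13 trafficking genes were tested. Limma called none of them, against 0.273% of all genes tested. Their median log2 fold changes were -0.02, 0.16 and -0.03, against -0.05 over all genes tested. RAP1B, a small GTPase that activates integrins, was at 5.36, 6.46, 7.96 and 7.92 FPKM (limma adjusted p = 0.399), and KRIT1, which binds an integrin inhibitor, was at 2.82, 3.71, 4.50 and 4.63 FPKM (limma adjusted p = 0.415). RAB25, which returns ITGA5 with ITGB1 to the surface, was at 53.4, 44.9, 35.3 and 34.1 FPKM (limma adjusted p = 0.379). DAB2, an endocytic adaptor of integrins, was at 9.29 to 12.8 FPKM. Of the 10 tetraspanins and membrane partners, 4 were higher in sh-MFAP2 without overlap, as were 1728 of the 9873 genes tested. Among these 4, PLAUR, the urokinase receptor, and SLC3A2 had the smallest p. Their log2 fold changes were 0.26 and 0.33 (limma adjusted p = 0.441 and adjusted p = 0.559).

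The genes whose centred log2 values over the 4 libraries were nearest to those of ITGA5 were CCDC120, RAVER1 and NDUFA5, at root mean square distances of 0.010, 0.0123 and 0.0131. For ITGA6 they were CASC4, RASGRP1 and CHI3L1, at 0.0323, 0.0524 and 0.0533. CASC4, for example, was at 10.1, 7.03, 14.2 and 15.9 FPKM. With 4 libraries such likeness is a description of these values only.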

How the data were processed

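The 4 AGS libraries (2 sh-MFAP2, 2 control) were grouped by their labels. The authors deposited gene and transcript values taken here as FPKM from the values themselves. The aligner and the program that estimated them are not given in the sources used here, and per the labels the build was hg38. Coordinates and transcript sequences come from GENCODE 29 on GRCh38, which holds 43715 (92.5%) of the gene identifiers and all 82 alpha subunit transcripts with equal length.

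The 9873 genes averaging 1 FPKM or more were fitted as log2(FPKM + 1) by limma 3.58.1 (R 4.3.3; lmFit, then eBayes allowing a trend of variance with level) over all 4 libraries without covariates, and adjusted by Benjamini-Hochberg. The study used a random variance model test, for which limma stands in. Transcripts were tested likewise. Python 3.11.15, pandas 2.3.3, numpy 2.4.6 and matplotlib 3.10.9 were used.

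The named genes are the 10 alpha subunits, the beta subunits, the 2 genes with the smallest p of each other list, genes overlapping an alpha subunit with a mean above the filter, and the 3 genes nearest to ITGA5 and ITGA6 in pattern. The members and lists were chosen with earlier results of these data known. In a simulated comparison of sh-MFAP2 with control over 9873 genes, 158 of 200 genes given a log2 change of 2 were called, and 5 of 9673 unchanged genes were. Smaller changes, such as the -0.79 of ITGA6, were not simulated, so this call rate does not cover them. The simulated noise was normal, with variances drawn from the fitted limma model itself. Jumps in 1 library, as in ITGAV, were not simulated either.

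Depth was inferred from steps between low values, of which 56.3% to 59.3% lay on whole steps within 0.05 of a step, too few to turn the values back into reads for a count test. The step finder erred by at most 0.198% on 3 simulated sets. The deviations of libraries with the same replicate number correlated at -0.0572 across all genes, and the main fit did not pair them. The replicate block fitted a shared effect of the replicate number for each gene, but that effect itself was not tested. Alternatives were the filter, the pseudocount, the scaling, the replicate block, eBayes without a trend, sums of transcripts as gene values, the threshold and leaving out each library.
CLDN4, LYZ, HASPIN and the grouping of transcripts by cassette exon were chosen after values were seen.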

Additional observations from a re-analysis of the deposited data

How the results depend on the processing

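No alpha subunit passed both thresholds under any alternative, and the smallest adjusted p in limma was 0.123, for ITGAV without sh-MFAP2 replicate 2. ITGA2, ITGA5, ITGA6 and ITGAV kept a negative log2 fold change under all 13 alternatives. ITGA3 turned to 0.0257 with median of ratios scaling, to 0.0206 with sums of transcripts and to 0.193 without sh-MFAP2 replicate 2, its range with a library left out being -0.270 to 0.193. ITGA7 turned to -0.0748 without sh-MFAP2 replicate 1 (range -0.0748 to 0.269), ITGAE to 0.00137 without sh-MFAP2 replicate 2 (range -0.280 to 0.00137) and ITGA9 to 0.00132 without control replicate 1 (range -0.00775 to 0.00132). The median log2 fold change of the tested subunits was -0.141, and it ran from -0.280 to -0.0323 with a library left out, being nearest to 0 without sh-MFAP2 replicate 2. It was -0.792 for the 5 subunits averaging 5 FPKM or more and -0.489 for the 6 tested on sums of protein-coding transcripts, an alternative chosen after seeing the data. The first change comes from fewer genes. The median on protein-coding sums also rests on fewer genes, since ITGAE lay under the filter there. The cause of the remaining changes was not tested. An unadjusted p under 0.05 alone called 1 subunit and 2 of 11 transcripts, 1 of which passed the filter only through its control values. With the replicate block, no subunit was called (0), as without it, and the smallest adjusted p was 0.614. Over all genes the block left 0 of the 27 calls, with 722 genes at an unadjusted p under 0.05. Leaving out any 1 library also left 0 calls over all genes, with 555 to 2166 at an unadjusted p under 0.05, and testing every gene above 0 left 6 and a minimum mean of 5 FPKM left 9. The inferred depth limits ITGA9 and full-length ITGAE to about 11 reads or fewer per library.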
